A study of Mus musculus with 75 samples.

Results

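The amino acid arginine enters cells through cationic amino acid carriers and is then used to make nitric oxide, urea, ornithine and polyamines. The genes described here are 2 carriers and 4 enzymes of that traffic: Slc7a2, Slc7a1, Nos2, Ass1, Arg2 and Odc1. They are 6 of the 45706 gene entries in the deposited count tables. They were chosen by their symbols with values of these libraries in view, because Slc7a2 separated RelA-dTAD from the empty vector (EV) after 8 h of tumor necrosis factor (TNF). For that reason the comparison of RelA-dTAD with EV at 8 h is given below as values with no test for all 6 genes. Slc7a2 itself has no test in any comparison that holds the 8 h libraries of EV or RelA-dTAD.

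The cells were C57BL/6 mouse embryonic fibroblasts, labelled as primary, in which p53, c-Rel and RelA are all deleted. RelA is an NF-kB subunit whose C-terminal part activates transcription through 2 domains, TA1 and TA2. Every group, EV included, carried the pBABE-puro retroviral vector, either empty or with an insert, which was unaltered RelA in RelA-WT and a mutant form in the other constructs. All cells were held overnight in 0.5% serum and were sampled before TNF (0 h) and after 0.5, 1, 3 and 8 h of TNF at 10 ng/ml. The 75 libraries of polyadenylated RNA fall into 55 groups of construct and time from 11 constructs. EV, RelA-WT, RelA-dTA1 (TA1 removed) and RelA-dTAD (the transactivation domains removed) have 2 libraries at each time, 1 in each of 2 deposited sets. The other 7 constructs have 1 library at each time. Of these, set 1 holds RelA-DB and RelA-dCterm. Set 2 holds the TA2 mutants RelA-TA2_S467A, RelA-TA2_CI and RelA-TA2_CI_S467A, with the last 2 also made without TA1 (RelA-TA2_CI_S467A-dTA1 and RelA-TA2_CI-dTA1). The labels do not spell out DB, dCterm or CI, and do not say whether a construct is a pool or a clone of infected cells. The labels do not tell whether the 2 libraries of a group are separate cultures. The p-values then reflect no more than how far these libraries lie apart, which may be technical. No libraries kept without TNF to 8 h were analysed here, so a change with TNF includes any change with time alone.

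Counted reads per library ran from 4422396 to 6915919 in set 1 (30 libraries) and from 10440202 to 22908738 in set 2 (45 libraries). Rela itself was at 15.5 to 29.6 CPM (counts scaled to a common library size) in EV and at 524 CPM or more in every other library. The 10 fibroblast markers listed for the check of cell type (Col1a1, Col1a2, Pdgfra, Vim and others) summed to 35071 to 55053 CPM. The 10 macrophage markers summed to 1.41 to 6.41 CPM, and 6 of them (Ptprc, Adgre1, Itgam, Tyrobp, Spi1 and C1qa) had a median of 0. Cd14, Csf1r, Lyz2 and Fcgr3 had medians of 1.55, 0.583, 0.195 and 0.177 CPM. Macrophages are known to express Nos2 and Slc7a2. The endothelial list summed to 30.3 to 60.8 CPM, carried by Kdr and Tek with Pecam1 and Cdh5 below 1 CPM, and the epithelial list to 2.40 to 14.7 CPM. In RNA from whole cultures, fewer cells that use a gene and less RNA of it per cell cannot be told apart.

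As background, Slc7a1 is the widely expressed arginine carrier, and Slc7a2 is its inducible relative, known from cells activated by cytokines. Nos2 is the inducible nitric oxide synthase, which oxidizes arginine to citrulline and nitric oxide. Ass1 joins citrulline with aspartate in the first of the steps that rebuild arginine. Arg2 is the mitochondrial arginase, which splits arginine into ornithine and urea, and Odc1 is ornithine decarboxylase, the entry step of polyamine synthesis. Nos2 is a classical NF-kB target gene of inflammation.

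The genes lie on 5 chromosomes of the mm10 build. Slc7a2 (ENSMUSG00000031596.13) is at chr8:40862396-40922308 on the plus strand and has 9135 exon bases. Slc7a1 (ENSMUSG00000041313.12) is at chr5:148327410-148399904 on the minus strand, with 11530 exon bases. Nos2 (ENSMUSG00000020826.6) is at chr11:78920787-78960254 on the plus strand, with 4192 exon bases. Arg2 (ENSMUSG00000021125.6) and Odc1 (ENSMUSG00000011179.7) share chromosome 12, at chr12:79130777-79156301 and chr12:17544873-17551502, both on the plus strand, with 1428 and 2547 exon bases. Ass1 (ENSMUSG00000076441.7) is at chr2:31470207-31520672 on the plus strand, with 2414 exon bases. The counts cover exons and do not separate untranslated from coding parts. Arg2 shares 285 exon bases with Vti1b on the opposite strand, which had 53011 reads over all libraries against 603 for Arg2. Whether reads were counted by strand is not given in the sources used here, and the Arg2 values are uncertain for that reason. Slc7a2 shares 635 exon bases with the antisense gene Gm26584, which had 49 reads against 142982.

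Promoter sequences were taken from RefSeq (GRCm38.p6) for Slc7a1, Odc1 and Ass1. These are the members with an entry in the promoter table used here, and they are shown because Slc7a1 and Odc1 ended higher in EV than in RelA-WT at 8 h. Each stretch is the 250 bases before the start given by RefSeq, read 5′ to 3′ on the gene's own strand. Capitals mark matches, on either strand, to a loose NF-kB motif (GGG, any 5 bases, CC), to AP-1 (TGANTCA), to a cyclic AMP response element (TGACGTCA), to an amino acid response element (TGATGNAA) or to an E-box (CACGTG). The Slc7a1 stretch lies at chr5:148399905-148400154, the Odc1 stretch at chr12:17544623-17544872 and the Ass1 stretch at chr2:31470020-31470269. The RefSeq start of Ass1 lies inside the span that the count table gives for the gene. Slc7a1 has a second RefSeq start, whose stretch at chr5:148392816-148393065 held no match and is not printed.
Slc7a1 promoter: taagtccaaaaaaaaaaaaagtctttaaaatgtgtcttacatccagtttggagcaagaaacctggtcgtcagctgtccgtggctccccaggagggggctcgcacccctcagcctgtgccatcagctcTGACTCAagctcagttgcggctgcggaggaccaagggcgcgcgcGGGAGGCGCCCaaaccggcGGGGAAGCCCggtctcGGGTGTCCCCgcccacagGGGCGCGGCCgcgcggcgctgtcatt
Odc1 promoter: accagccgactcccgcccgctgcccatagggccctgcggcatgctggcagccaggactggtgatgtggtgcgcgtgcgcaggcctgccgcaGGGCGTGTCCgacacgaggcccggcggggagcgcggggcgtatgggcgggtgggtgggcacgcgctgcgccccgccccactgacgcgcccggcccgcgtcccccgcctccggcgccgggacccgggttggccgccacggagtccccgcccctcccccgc
Ass1 promoter: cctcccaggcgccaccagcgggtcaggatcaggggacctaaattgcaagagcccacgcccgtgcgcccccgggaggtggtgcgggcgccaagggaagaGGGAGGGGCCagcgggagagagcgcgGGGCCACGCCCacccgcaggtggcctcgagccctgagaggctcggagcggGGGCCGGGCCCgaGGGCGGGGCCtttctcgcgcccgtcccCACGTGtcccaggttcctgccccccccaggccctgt
The Slc7a1 stretch held 1 AP-1 match (TGACTCA, 123 to 117 bases before the start), and NF-kB matches from 79 to 17 bases before the start, some of which overlap each other on the opposite strand. The Odc1 stretch held 1 NF-kB match, 159 to 150 bases before the start. The Ass1 stretch held several overlapping NF-kB matches and 1 E-box. Among 32851 RefSeq mouse promoters (250 bases before to 50 after the start), 50.8% held the NF-kB motif, 7.81% the AP-1 motif, 7.15% the E-box, 3.97% the amino acid response motif and 1.79% the cyclic AMP response element. The loose NF-kB motif is thus present in a large share of all promoters, and a match is not evidence of binding.

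All 6 genes passed the filter on low counts. In the replicated constructs Nos2 exceeded 1 CPM only at 3 and 8 h in RelA-WT and RelA-dTA1. Arg2 exceeded it only after TNF and in no EV library. Both thus entered the tests through the groups where they were high, so their calls are not independent of the filter. With no filter on low counts no member call was lost. Of 6 genes tested at each time in RelA-WT, 0 passed at 0.5 and at 1 h, 3 rose at 3 h and 4 rose at 8 h. The tests are edgeR's quasi-likelihood test with Benjamini-Hochberg adjustment over all genes, at a threshold of 0.05, and log2 fold changes are given ± SE. Over all 13665 genes in RelA-WT, 0.812% passed in either direction at 0.5 h, 3.24% at 1 h, 16.3% at 3 h and 27.4% at 8 h. Genes that rose were 0.776%, 2.55%, 10.5% and 15.8% of all. In RelA-dTA1 the counts were 0, 0, 3 and 5 of 6, against 0.629%, 1.62%, 14.4% and 34.6% of all genes, with 0.615%, 1.41%, 9.58% and 19.4% rising. In RelA-dTAD they were 0, 0 and 0 of 6, then 3 of 5 at 8 h, against 0.439%, 0.549%, 2.91% and 46.9%, with 0.439%, 0.534%, 2.28% and 24.4% rising. In EV they were 0, 0 and 0 of 6, then 2 of 5 at 8 h, against 0.402%, 0.827%, 3.94% and 48.7%. Genes that rose in EV were 0.402%, 0.768%, 3.02% and 25.6% of all. Nos2 is counted among the 6 in EV but had 0 reads there before 8 h, so it could not pass at those times. With the deposited set as a replicate block EV had 4 calls in place of 2, with Slc7a1 added at 3 h and Ass1 at 8 h (edgeR adjusted p = 0.036 and 0.00791). RelA-WT then had 10 calls in place of 7, RelA-dTAD 4 in place of 3, and RelA-dTA1 8 as before. No member fell past the threshold with TNF in any construct tested. The fall of Slc7a2 in EV at 8 h (log2 change -0.58) was not among the tests. The median log2 change over the members at 8 h was 1.64 in RelA-WT and 1.73 in RelA-dTA1 over 6 genes, and 0.91 in RelA-dTAD and 1.27 in EV over 5. Without Nos2, whose fitted change rests on few reads, the medians were 1.48 in RelA-WT and 1.32 in RelA-dTA1. In RelA-dTAD and EV, where Slc7a2 is left out as well, they were 1.27 and 1.11. These medians cover unlike sets of genes, so their order cannot be read as an order of response. The medians over all genes at that time lay between -0.03 and -0.02.

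Slc7a2, the inducible carrier, rose with TNF in RelA-WT and RelA-dTA1 from 3 h on. Before TNF all 15 libraries lay between 67.1 and 112 CPM, with a median of 86.1 CPM. In RelA-WT it was at 86.1 CPM in set 1 and 83.9 CPM in set 2 at 0 h. It was at 112 and 143 CPM at 1 h, 331 and 324 CPM at 3 h, and 362 and 291 CPM at 8 h. Both libraries at 3 h and both at 8 h were above every library at 0 h. The log2 change was 1.96 ± 0.21 at 3 h (edgeR adjusted p = 2.14e-07) and 1.95 ± 0.21 at 8 h (edgeR adjusted p = 2.03e-07). At 1 h it was 0.60 ± 0.21 with an edgeR adjusted p of 0.168, of 0.0393 when the deposited set was a replicate block and of 0.000471 with no filter on low counts. In RelA-dTA1, Slc7a2 was at 96.4 and 112 CPM at 0 h, 303 and 420 CPM at 3 h, and 429 and 480 CPM at 8 h. Its log2 change was 1.81 ± 0.21 at 3 h and 2.13 ± 0.21 at 8 h (edgeR adjusted p = 8.56e-07 and 3.74e-08). The 8 h level in RelA-dTA1 was above that of RelA-WT by 0.47 ± 0.20 on the log2 scale, which did not pass (edgeR unadjusted p = 0.0292, adjusted p = 1).

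In EV, Slc7a2 lay between 41.7 and 80.6 CPM at all times and was lowest at 8 h. Set 1 gave 67.2, 69.7, 72.6, 67.9 and 41.7 CPM at 0, 0.5, 1, 3 and 8 h, and set 2 gave 80.3, 72.4, 80.6, 72.0 and 54.1 CPM. The 8 h library was the lowest of its set both times. The log2 change at 3 h was -0.08 ± 0.21 (edgeR adjusted p = 0.936), and at 8 h it was -0.58, given with no test. In RelA-dTAD, set 1 gave 76.9, 80.7, 72.3, 101 and 181 CPM, and set 2 gave 106, 91.5, 102, 129 and 295 CPM. The 8 h library was the highest of its set both times, at 2.35 and 2.77 times its 0 h value, while in EV these ratios were 0.62 and 0.673. The log2 change in RelA-dTAD at 3 h was 0.32 ± 0.21 (edgeR adjusted p = 0.559), and at 8 h it was 1.38, given with no test. Between RelA-dTAD and EV the difference at 8 h was 2.29 on the log2 scale, which is the value that chose these genes. The transgene also moved in these libraries: Rela went from 1113 to 3907 CPM in set 1 and from 1805 to 6717 CPM in set 2 of RelA-dTAD between 0 and 8 h, against 1143 to 1461 and 1473 to 1770 CPM in RelA-WT. Rela rose in the other constructs with an insert as well, from 1.37 times in RelA-TA2_S467A to 3.32 times in RelA-TA2_CI-dTA1. In RelA-DB it rose 2.63 times and in RelA-dCterm 3.22 times over the same hours. Whether the level of Rela has a part in the Slc7a2 values was not tested.

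The 3 h libraries were not part of that choice, and there Slc7a2 was lower in both EV and RelA-dTAD than in RelA-WT. Against RelA-WT the log2 difference at 3 h was -2.26 ± 0.22 in EV (edgeR adjusted p = 2.72e-08) and -1.53 ± 0.21 in RelA-dTAD (edgeR adjusted p = 1.25e-05). These comparisons share the RelA-WT libraries. The change from 0 to 3 h was itself smaller than in RelA-WT, by -2.04 ± 0.30 in EV and -1.64 ± 0.29 in RelA-dTAD on the log2 scale (edgeR adjusted p = 8.38e-05 and 0.00116). At 1 h the difference of EV from RelA-WT was -0.75 ± 0.21 (edgeR adjusted p = 0.0471), a call that was lost without either EV library, without either RelA-WT library or without the second RelA-dTA1 replicate (adjusted p 0.052 to 0.616). Between RelA-dTAD and EV at 3 h, Slc7a2 was higher in RelA-dTAD by 0.73 ± 0.21 in log2. The 2 RelA-dTAD libraries (101 and 129 CPM) were above the 2 EV libraries (67.9 and 72.0 CPM). That difference had an edgeR adjusted p of 0.148, of 0.0265 with the replicate block, of 3.83e-06 with no filter on low counts and of 0.0472 without the first RelA-dTAD replicate.

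**Figure D1:**
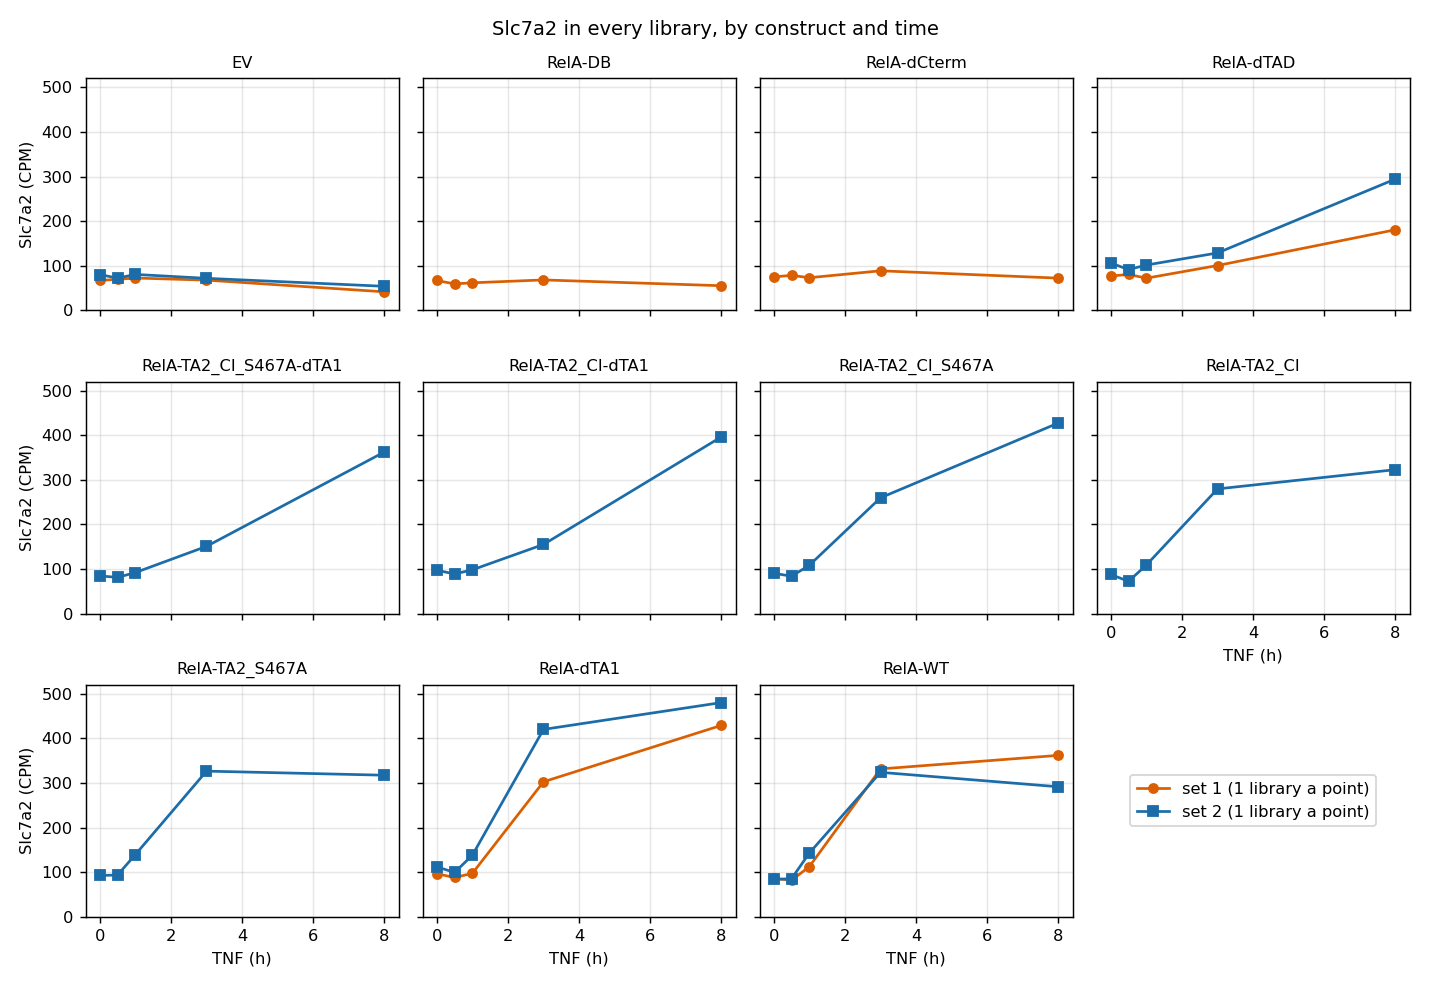
Slc7a2 in CPM (vertical axis, linear, from 0) against hours of TNF (horizontal axis) in each of the 11 constructs, where each point is 1 library and lines join the libraries of 1 set (circles set 1, squares set 2). EV, RelA-DB and RelA-dCterm stay below 100 CPM at all times, RelA-dTAD reaches 181 and 295 CPM at 8 h, and the other constructs lie between 291 and 480 CPM at 8 h.

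Among the constructs with 1 library a time, Slc7a2 took 2 kinds of course. RelA-DB went from 67.1 to 55.3 CPM and RelA-dCterm from 75.2 to 72.3 CPM between 0 and 8 h. Their log2 changes were -0.25 ± 0.32 and -0.04 ± 0.31 (edgeR adjusted p = 0.601 and 0.963). The 5 constructs with changes in TA2 all rose by 8 h, to 323 CPM in RelA-TA2_CI, 317 CPM in RelA-TA2_S467A, 427 CPM in RelA-TA2_CI_S467A, 396 CPM in RelA-TA2_CI-dTA1 and 362 CPM in RelA-TA2_CI_S467A-dTA1. Their log2 changes ran from 1.76 to 2.23, and the largest edgeR adjusted p was 0.00027. These tests borrow the spread of the replicated constructs, since lone libraries have none of their own. Both constructs that pair a TA2 change with the loss of TA1 were lower at 3 h than the other 3. They had 155 and 151 CPM at 3 h, where RelA-TA2_CI had 280 CPM, RelA-TA2_S467A 327 CPM and RelA-TA2_CI_S467A 260 CPM. At 8 h the TA2 constructs with and without TA1 overlapped. Rela was at 3850 CPM in RelA-TA2_CI-dTA1 and 3863 CPM in RelA-TA2_CI_S467A-dTA1 at 8 h, and at 1932 to 2625 CPM in the other 3. RelA-DB and RelA-dCterm had Rela at 1698 and 1687 CPM at 8 h, from 647 and 524 CPM at 0 h. The part of Rela in these courses was not tested.

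In order of level at 8 h, Slc7a2 ran from EV (41.7 and 54.1 CPM) through RelA-DB, RelA-dCterm, RelA-dTAD (181 and 295 CPM) and RelA-WT (291 and 362 CPM) to RelA-dTA1 (429 and 480 CPM). The TA2 constructs, at 317 to 427 CPM, lay within the span of RelA-WT and RelA-dTA1. RelA-DB, at 55.3 CPM, was just above the higher EV library. The higher RelA-dTAD library (295 CPM) was above the lower RelA-WT library (291 CPM), but those come from the same set, and in set 1 the values were 181 and 362 CPM. Over the 8 h libraries of EV, RelA-WT and RelA-dTAD the order is a description, with no test.

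Of the 29 pairs of gene and time tested between EV and RelA-WT, 7 passed, with 1 lower at 1 h, 3 lower at 3 h, and 1 lower and 2 higher at 8 h. With the replicate block 9 passed, and with no filter on low counts 10. Of all genes, 0.563% passed at 0 h, 1.1% at 0.5 h, 3.27% at 1 h, 11.4% at 3 h and 32.4% at 8 h. Between RelA-dTAD and RelA-WT 5 of 29 pairs passed, 8 with the replicate block. There were 2 lower at 3 h, and 1 lower and 2 higher at 8 h. Of all genes, 0.0293% passed at 0 h, 0.381% at 0.5 h, 1.96% at 1 h, 7.59% at 3 h and 24.7% at 8 h. Between RelA-dTA1 and RelA-WT 0 of 30 pairs passed in edgeR's test, with 1 at an unadjusted p under 0.05, 0 by DESeq2 and 0 with the replicate block. Few genes of any kind passed there: 0.0% at 0 h, 0.0805% at 0.5 h, 0.344% at 1 h, 0.0293% at 3 h and 0.00732% at 8 h. Between RelA-dTAD and EV before 8 h 0 of 24 pairs passed in edgeR's test, with 1 at an unadjusted p under 0.05, 0 by DESeq2, and 1 with the replicate block, which is Slc7a2 at 3 h. Of all genes, 0.644% passed at 0 h, 0.739% at 0.5 h, 0.432% at 1 h and 0.966% at 3 h. Nos2 had 0 reads in EV, RelA-WT and RelA-dTAD at 0.5 h, so its pairs between these at that time could not pass.

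The size of the TNF response was also compared between constructs. In EV against RelA-WT, 1 of 6 members (Slc7a2) had a smaller response at 3 h, where 3.68% of all genes differed, and 2 of 5 (Slc7a1 and Odc1) a larger one at 8 h, where 17.6% did. Of all genes, 2.8% had a lower log2 change in EV at 3 h and 9.67% a higher one at 8 h. Nos2 could not be judged by this test, since EV had 0 reads of it at 0 and 3 h and 1 read at 8 h. Its differences of response there had an SE of 18300 and 17.3. In RelA-dTAD against RelA-WT Slc7a2 had a smaller response at 3 h and Slc7a1 and Odc1 a larger one at 8 h, where 3.1% and 12.2% of all genes differed. Of all genes, 2.5% had a lower log2 change in RelA-dTAD at 3 h and 6.45% a higher one at 8 h. Nos2 had 1 read in RelA-dTAD at 0, 3 and 8 h each, so its response there is poorly measured. Both comparisons use the RelA-WT libraries. In RelA-dTA1 against RelA-WT 0 of 6 members and 0.0% of all genes differed in response at 3 h, and again 0 of 6 and 0.0% at 8 h. At an unadjusted p under 0.05, 182 genes differed there at 3 h and 265 at 8 h. DESeq2 called 1 and 0, and the replicate block 6 and 8. For the unstimulated RelA-dTA1 and RelA-WT cells, 154 genes had an unadjusted p under 0.05, DESeq2 called 0 and the replicate block 4.

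Slc7a1, the general carrier, rose in every construct by 8 h and ended highest in EV, RelA-dTAD, RelA-DB and RelA-dCterm. At 0 h all 15 libraries lay between 110 and 151 CPM. At 8 h EV reached 408 CPM in set 1 and 361 CPM in set 2, from 110 and 135 CPM. RelA-dTAD reached 431 and 400 CPM from 122 and 149 CPM. RelA-WT reached 251 and 213 CPM from 115 and 133 CPM, and RelA-dTA1 297 and 258 CPM from 119 and 151 CPM. Both EV libraries and both RelA-dTAD libraries were above all 4 libraries of RelA-WT and RelA-dTA1. The log2 change at 8 h was 1.69 ± 0.16 in EV, 1.62 ± 0.16 in RelA-dTAD, 1.05 ± 0.16 in RelA-dTA1 and 0.91 ± 0.16 in RelA-WT, and all 4 passed (edgeR adjusted p from 7.42e-09 to 0.000118). Against RelA-WT at 8 h, Slc7a1 was higher by 0.74 ± 0.16 in EV and by 0.84 ± 0.16 in RelA-dTAD (edgeR adjusted p = 0.000725 and 0.0003).

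The response of Slc7a1 from 0 to 8 h exceeded that of RelA-WT by 0.78 ± 0.22 in EV and 0.71 ± 0.22 in RelA-dTAD (edgeR adjusted p = 0.0172 and 0.0392). The EV difference was lost without the first EV replicate or the second RelA-WT replicate (adjusted p = 0.318 and 0.295), and the RelA-dTAD difference without the second EV, RelA-WT or RelA-dTA1 replicate or either RelA-dTAD replicate (adjusted p 0.0522 to 0.444). At 3 h Slc7a1 in EV had a log2 change of 0.54 ± 0.16, with an edgeR adjusted p of 0.0592, of 0.036 with the replicate block and of 0.00237 with no filter on low counts, and DESeq2 gave 0.0257. The sets differed here: the 3 h value was 1.70 times the 0 h value in set 1 and 1.25 times in set 2 of EV, and 1.29 and 0.925 times in RelA-WT. At 1 h every library was between 138 and 190 CPM, and the change passed in none of the 4 replicated constructs (edgeR adjusted p 0.131 to 0.918, and 0.0139 in RelA-WT with no filter on low counts), with an unadjusted p under 0.05 in RelA-WT, EV and RelA-dTAD.

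Among the 7 lone constructs, RelA-DB ended at 394 CPM and RelA-dCterm at 401 CPM, RelA-TA2_CI-dTA1 at 327 CPM and RelA-TA2_CI_S467A-dTA1 at 334 CPM, and RelA-TA2_CI, RelA-TA2_S467A and RelA-TA2_CI_S467A at 240, 221 and 272 CPM. All 7 rose from 0 to 8 h, with log2 changes from 0.69 to 1.79 and edgeR adjusted p from 1.32e-06 to 0.0413. Within set 2, both constructs that lack TA1 besides the TA2 change were above the other 3 of the TA2 group and below RelA-dTAD (400 CPM). That order was not tested.

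The balance of the carriers per unit of transcript length differed between constructs after TNF. At 0 h the ratio of Slc7a2 to Slc7a1, each in CPM per kilobase of exon, was 0.732 to 1.02 in all 15 libraries. In RelA-WT it was 2.82 and 3.33 at 3 h and 1.82 and 1.72 at 8 h. In EV it was 0.129 in set 1 and 0.189 in set 2 at 8 h, with 0.177 in RelA-DB and 0.228 in RelA-dCterm. RelA-dTAD was at 0.529 in set 1 and 0.93 in set 2, where its 0 h libraries were at 0.793 and 0.903. The ratios of EV and RelA-dTAD at 8 h hold the values that chose the genes and are given with no test.

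**Figure D2:**
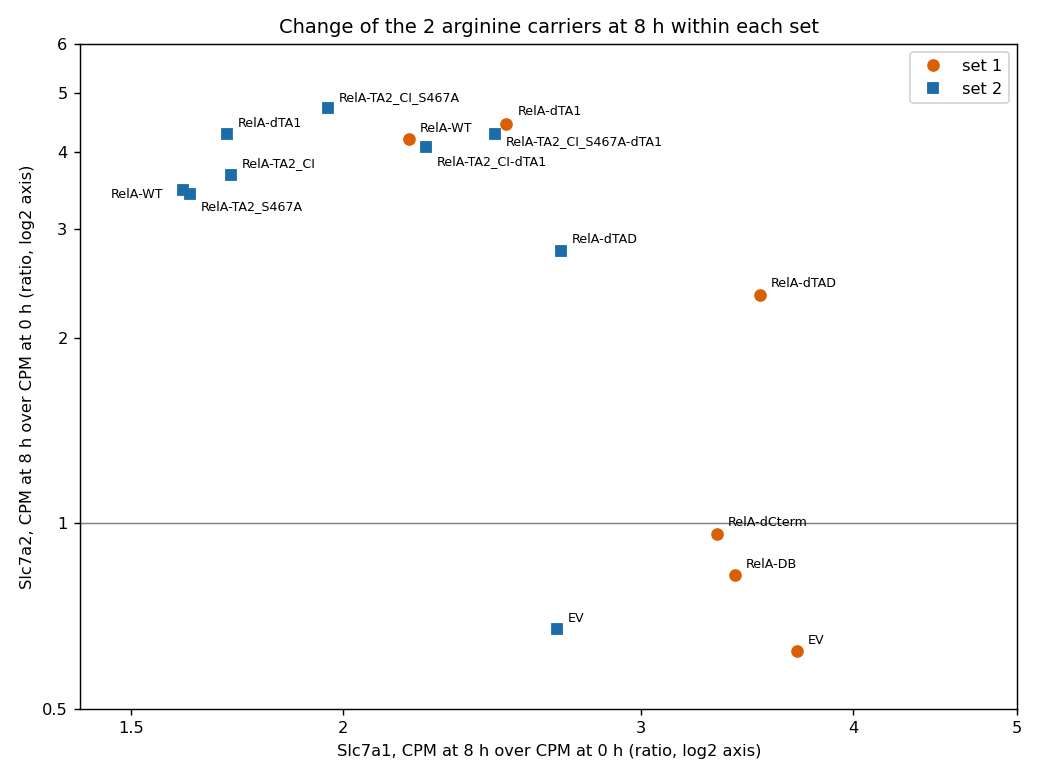
Ratio of CPM at 8 h to CPM at 0 h for Slc7a1 (horizontal, log2 axis) and Slc7a2 (vertical, log2 axis), 1 point for each construct and set (circles set 1, squares set 2), with a line at an unchanged Slc7a2. The EV, RelA-DB and RelA-dCterm points lie below the line at 2.67 to 3.71 for Slc7a1, RelA-dTAD at 2.35 and 2.77 for Slc7a2, and the other points at 3.43 to 4.72 for Slc7a2.

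Nos2, the inducible nitric oxide synthase, rose with TNF to low levels in RelA-WT and RelA-dTA1, and had at most 1 read in any library of EV or RelA-dTAD. Over all 15 libraries at 0 h it had 9 reads in all. RelA-WT had 0 and 1 reads at 0 h, 35 and 91 at 3 h, and 23 and 43 at 8 h, in sets 1 and 2. In CPM that is 6.93 and 8.68 at 3 h, and 4.59 and 3.32 at 8 h. RelA-dTA1 had 2 and 2 reads at 0 h, 23 and 105 at 3 h, and 17 and 74 at 8 h. EV had 0 reads in 9 libraries and 1 read in the set 2 library at 8 h. RelA-DB and RelA-dCterm had 0 reads at all 5 times, and RelA-dTAD had 4 reads over its 10 libraries. A count of 0 allows up to 3 reads.

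By depth-scaled reads, Nos2 in RelA-WT was 154 times its 0 h level at 3 h (95% interval 27.2 to 6142, exact conditional binomial) and 69.9 times at 8 h (12.1 to 2804). In RelA-dTA1 the ratios were 43.3 (16.5 to 161) and 26.1 (9.83 to 97.7). These intervals cover counting error only. Both rises passed in both constructs (edgeR adjusted p = 9.23e-06 and 7.99e-05 in RelA-WT, and 3.46e-05 and 8.91e-05 in RelA-dTA1), and the 3 h call of RelA-dTA1 was lost without its second replicate (adjusted p = 0.0619). RelA-WT was at least 48.5-fold higher than EV at 3 h, with 126 against 0 reads and a floor of 3 reads over the group. At 8 h it was 50.6 times EV (8.77 to 2029), with 66 against 1 reads. Against RelA-dTAD it was 202 times higher at 3 h (35.6 to 8034) and 73.1 times at 8 h (12.7 to 2932), each against 1 read. All 4 comparisons passed (edgeR adjusted p from 5.69e-06 to 0.000177). Nos2 had entered these tests through the groups where it was high, so the calls are not independent of the filter on low counts. The macrophage list stayed at 1.88 to 6.13 CPM in RelA-WT and 1.43 to 4.01 CPM in EV in sum. Over all libraries Ptprc, Adgre1 and Spi1 had a median of 0, while Cd14 reached 5.40 CPM and Csf1r 2.18 CPM.

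Among the TA2 constructs, Nos2 had fewer reads in the 2 that also lack TA1. At 3 h RelA-TA2_S467A had 122 reads (6.99 CPM), RelA-TA2_CI 64 reads (2.83 CPM) and RelA-TA2_CI_S467A 39 reads (2.17 CPM). RelA-TA2_CI_S467A-dTA1 had 8 reads (0.458 CPM) and RelA-TA2_CI-dTA1 had 2 reads. At 8 h the reads were 58, 29, 28, 6 and 1 in the same order of constructs. The 8 h change passed in RelA-TA2_S467A, RelA-TA2_CI, RelA-TA2_CI_S467A and RelA-TA2_CI_S467A-dTA1 (edgeR adjusted p from 0.00212 to 0.0495), and DESeq2 called none of these 4 (adjusted p 0.268 to 0.583). At 8 h RelA-TA2_CI-dTA1 thus had 396 CPM of Slc7a2 with 1 read of Nos2.

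Ass1, which takes up the citrulline made by nitric oxide synthase, rose by 8 h in RelA-WT and RelA-dTA1. RelA-WT went from 6.20 to 21.6 CPM in set 1 and from 10.1 to 24.6 CPM in set 2. RelA-dTA1 went from 6.56 to 18.8 CPM and from 9.90 to 22.6 CPM. The log2 changes were 1.48 ± 0.47 and 1.32 ± 0.46 (edgeR adjusted p = 0.0194 and 0.0279), and each call was lost without either library of its own construct (adjusted p 0.0905 to 0.259). EV went from 6.92 to 7.91 CPM in set 1 and from 10.4 to 17.8 CPM in set 2, and RelA-dTAD from 6.57 to 8.41 CPM and from 8.53 to 19.2 CPM. Set 2 was above set 1 in every pair of the 4 constructs at 0 and 8 h. In each set the 8 h libraries of RelA-WT and RelA-dTA1 were above those of EV and RelA-dTAD, by a wide gap in set 1 and a small one in set 2.

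For Ass1 the calls differed between the fits with and without the replicate block, and also between those with and without the filter on low counts. Without the block the 8 h change was 0.63 ± 0.47 in EV and 0.91 ± 0.46 in RelA-dTAD (edgeR adjusted p = 0.282 and 0.112). With it the adjusted p were 0.00791 and 4.76e-05, and with no filter and no block RelA-dTAD passed (0.00167). Against RelA-WT, Ass1 was lower in EV by -1.16 ± 0.49 at 3 h and -0.79 ± 0.46 at 8 h in log2, with adjusted p of 0.156 and 0.207 without the block and 0.000134 and 0.00118 with it. With no filter and no block they were 0.000509 and 0.0118. In RelA-dTAD the differences were -0.88 ± 0.48 and -0.69 ± 0.45, with adjusted p of 0.392 and 0.298 without the block and 0.00143 and 0.00351 with it, and 0.0204 and 0.0432 with no filter and no block. The 3 h change in RelA-WT was 0.68 ± 0.47, with adjusted p of 0.389 without the block and 0.0127 with it. The response in EV differed from that of RelA-WT by -1.22 ± 0.68 at 3 h and -0.85 ± 0.66 at 8 h, with adjusted p of 0.591 and 0.438 without the block and 0.00768 and 0.0256 with it. With no filter and no block the 3 h difference passed (0.0455). Within set 1 the 8 h value was 1.14 times the 0 h value in EV, 1.28 in RelA-dTAD, 3.48 in RelA-WT and 2.87 in RelA-dTA1. Within set 2 it was 1.71, 2.26, 2.44 and 2.28 times. In the lone constructs Ass1 reached 18.1 to 23.1 CPM at 8 h in set 2 and 7.13 and 9.84 CPM in set 1 (RelA-DB and RelA-dCterm), and 0 of 7 passed in edgeR's test on filtered genes without the block, whether at the adjusted threshold or at an unadjusted p under 0.05. With the block the 5 TA2 constructs passed (adjusted p from 1.52e-05 to 0.00133). With no filter on low counts and no block, RelA-TA2_CI-dTA1, RelA-TA2_S467A and RelA-TA2_CI_S467A passed (adjusted p = 0.00891, 0.00529 and 0.00516).

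**Figure D3:**
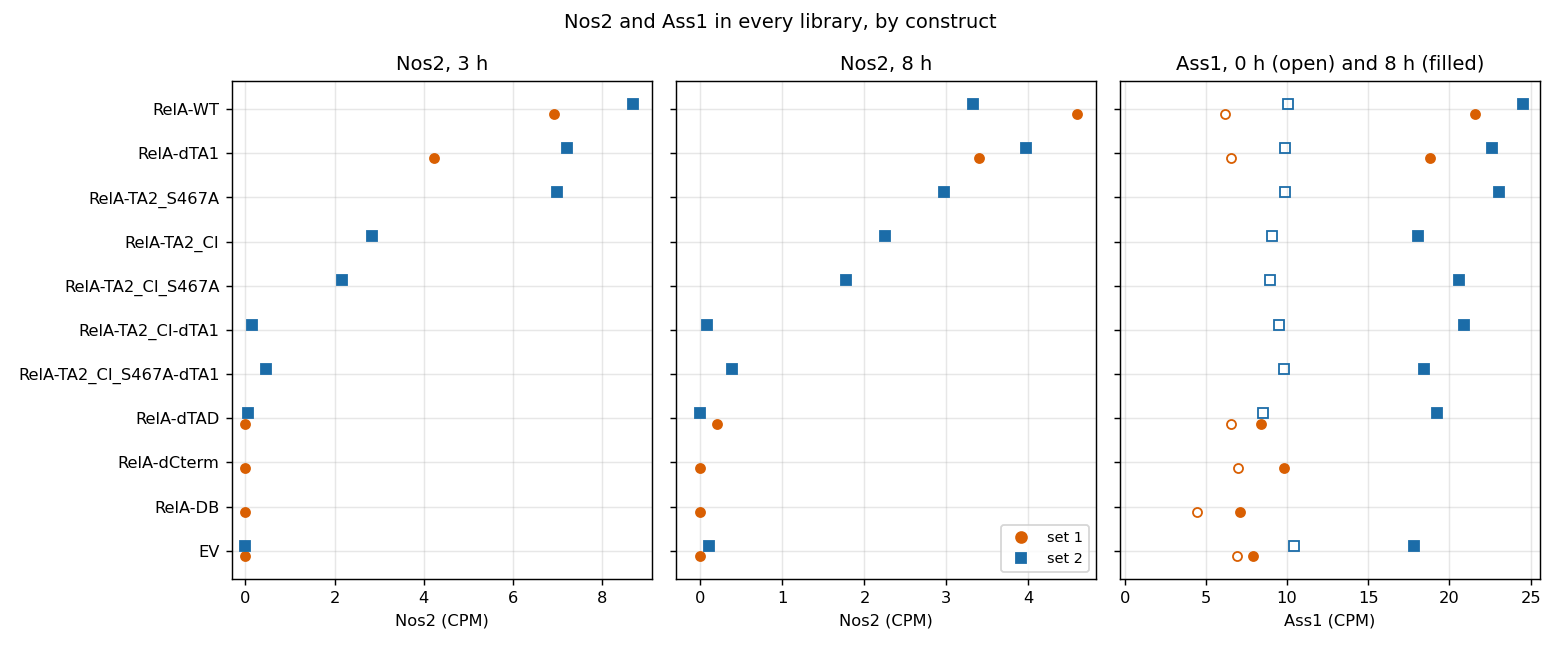
CPM of Nos2 at 3 h (left) and 8 h (middle) and of Ass1 at 0 h (open) and 8 h (filled, right) in each construct, with linear horizontal axes and 1 point for each library (circles set 1, squares set 2). At 3 h the RelA-WT and RelA-dTA1 libraries have 4.23 to 8.68 CPM of Nos2 and both EV libraries have 0 CPM, and Ass1 in EV ends at 7.91 CPM in set 1 and 17.8 CPM in set 2.

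Arg2, the mitochondrial arginase, was near the limit of detection, with at most 36 reads and 2.46 CPM in a library. In RelA-WT it had 3 and 4 reads at 0 h, 8 and 24 at 3 h, and 10 and 12 at 8 h. In RelA-dTA1 it had 2 and 6 reads at 0 h, 7 and 22 at 3 h, and 10 and 32 at 8 h. In RelA-dTAD it had 4 and 3 reads at 0 h and 6 and 25 at 8 h, and in EV 4 and 0 reads at 0 h and 3 and 4 at 8 h. By depth-scaled reads the 8 h level was 3.33 times the 0 h level in RelA-WT (95% interval 1.37 to 9.23, exact conditional binomial), 6.01 times in RelA-dTA1 (2.79 to 14.8), 5.71 times in RelA-dTAD (2.47 to 15.4) and 2.51 times in EV (0.637 to 11.7). At 8 h it passed in RelA-dTA1 and RelA-dTAD (edgeR adjusted p = 0.00582 and 0.0121) and not in RelA-WT or EV (0.0866 and 0.321). With the replicate block RelA-WT passed as well (adjusted p = 0.035), and so it did without the first or the second EV replicate (0.0359 and 0.0329). Without the first EV replicate, which leaves 0 reads at 0 h, Arg2 in EV passed too (0.0383).

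At 3 h Arg2 passed in RelA-WT and RelA-dTA1 (edgeR adjusted p = 0.0241 and 0.0371) and was lower in EV than in RelA-WT (0.0203). DESeq2 gave adjusted p of 0.0608, 0.0817 and 0.0568 for these. The RelA-WT rise was lost without either RelA-WT replicate or the first RelA-dTA1 replicate (adjusted p 0.0532 to 0.479). The RelA-dTA1 rise was lost without either RelA-WT replicate, either of its own or the first RelA-dTAD replicate (0.0523 to 0.493). The EV difference was lost without the second EV, the second RelA-WT or the first RelA-dTA1 replicate (0.0512 to 0.305). Between RelA-dTAD and RelA-WT at 3 h, Arg2 differed by -1.62 in log2, with adjusted p of 0.169 and of 0.0199 with the replicate block. The rise in RelA-dTA1 at 8 h was lost without either of its own replicates (adjusted p = 0.105 and 0.133), and that in RelA-dTAD without its second replicate (adjusted p = 0.56). In the lone constructs Arg2 passed at 8 h in RelA-DB, RelA-TA2_CI-dTA1 and RelA-TA2_CI_S467A, with 10, 20 and 22 reads against 0, 1 and 3 at 0 h. With the block RelA-TA2_CI, RelA-TA2_S467A and RelA-TA2_CI_S467A-dTA1 passed too (adjusted p = 0.0129, 0.00418 and 0.00771), and with no filter and no block the first 2 of these (0.0404 and 0.0327). Reads of Vti1b that overlap Arg2 cannot be told apart from its own without the strand setting.

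Odc1, the entry enzyme of polyamine synthesis, rose by 8 h in EV and RelA-dTAD, while its change did not pass in RelA-WT or RelA-dTA1. Reads of near-identical copies of Odc1 elsewhere in the genome could be split between entries, so its levels are uncertain to that extent. EV went from 45.0 to 77.3 CPM in set 1 and from 40.1 to 82.4 CPM in set 2. RelA-dTAD went from 38.5 to 62.0 CPM and from 42.2 to 65.0 CPM. RelA-WT went from 43.7 to 39.1 CPM and from 46.1 to 42.7 CPM, and RelA-dTA1 from 34.8 to 44.6 CPM and from 41.4 to 45.2 CPM. At 8 h the EV and RelA-dTAD libraries were above all 4 of RelA-WT and RelA-dTA1, and both EV libraries were above both RelA-dTAD libraries. The log2 change at 8 h was 0.95 ± 0.13 in EV and 0.66 ± 0.13 in RelA-dTAD (edgeR adjusted p = 2.49e-06 and 0.000254). In RelA-WT it was -0.13 ± 0.13 and in RelA-dTA1 0.24 ± 0.13 (edgeR adjusted p = 0.534 and 0.168). Before 8 h Odc1 passed in none of the 4 constructs at any time.

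Against RelA-WT at 8 h, Odc1 was higher by 0.98 ± 0.13 in EV and 0.63 ± 0.13 in RelA-dTAD in log2 (edgeR adjusted p = 3.9e-06 and 0.00098). The response from 0 to 8 h exceeded that of RelA-WT by 1.08 ± 0.19 in EV and 0.79 ± 0.19 in RelA-dTAD (edgeR adjusted p = 0.000229 and 0.00653), the latter lost without the second RelA-WT replicate (0.0591). RelA-dTAD and EV differed by -0.34 in log2 at 8 h, given with no test. Among the lone constructs Odc1 was at 76.7 CPM in RelA-DB and 78.5 CPM in RelA-dCterm at 8 h, at 65.8 CPM in RelA-TA2_CI-dTA1 and 61.0 CPM in RelA-TA2_CI_S467A-dTA1, and at 42.5, 42.1 and 47.4 CPM in RelA-TA2_CI, RelA-TA2_S467A and RelA-TA2_CI_S467A. Of these 7, RelA-DB, RelA-dCterm and RelA-TA2_CI-dTA1 rose from 0 h (edgeR adjusted p = 0.00806, 0.000142 and 0.00283). RelA-TA2_CI_S467A-dTA1 started higher, at 50.1 CPM, and its change of 0.29 ± 0.18 did not pass (edgeR adjusted p = 0.288).

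**Figure D4:**
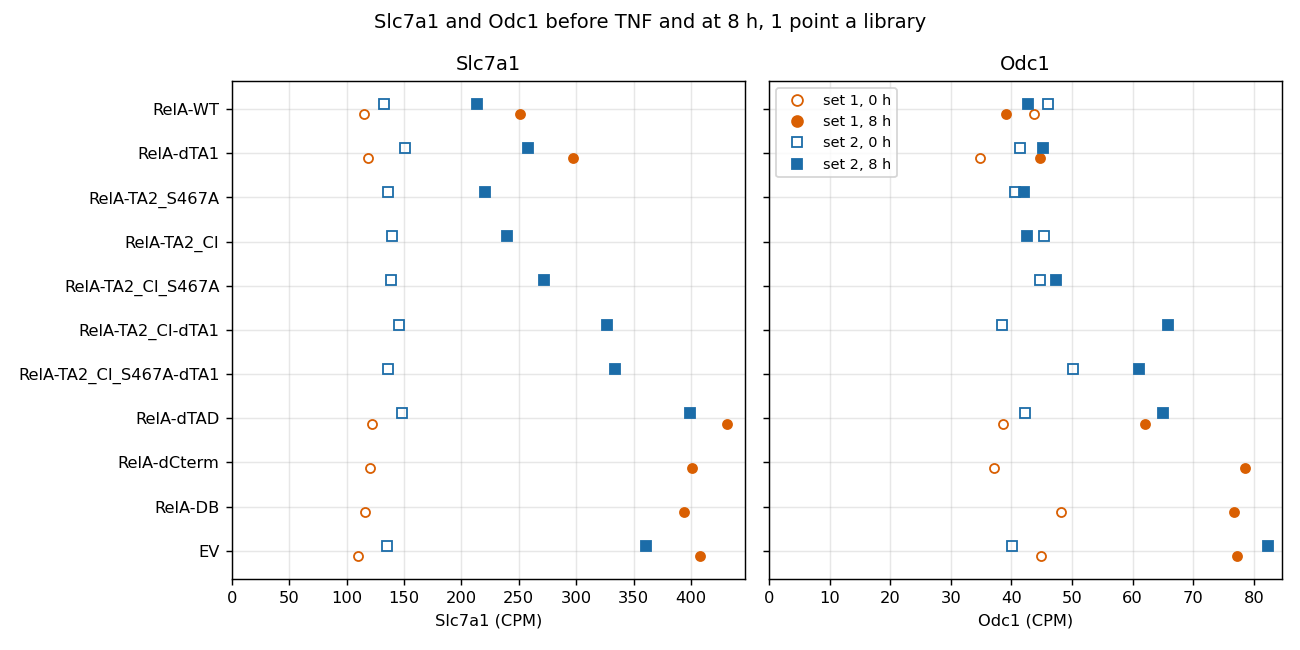
CPM of Slc7a1 (left) and Odc1 (right) at 0 h (open) and 8 h (filled) in each construct, with linear horizontal axes from 0 and 1 point for each library (circles set 1, squares set 2). At 8 h Slc7a1 lies at 361 to 431 CPM in EV and RelA-dTAD and at 213 to 297 CPM in RelA-WT and RelA-dTA1, and Odc1 at 62.0 to 82.4 CPM and 39.1 to 45.2 CPM.

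Counted over the 7 lone constructs at 8 h, members rose past the threshold in 3 of 6 cases in RelA-DB (30.4% of all 15090 genes passed in either direction), 2 in RelA-dCterm (28.6%), 3 in RelA-TA2_CI (10.6%), 4 in RelA-TA2_CI-dTA1 (24.8%), 3 in RelA-TA2_S467A (10.0%), 4 in RelA-TA2_CI_S467A (15.8%) and 3 in RelA-TA2_CI_S467A-dTA1 (21.7%). The shares of all genes that rose were 16.6%, 15.8%, 7.39%, 14.0%, 6.91%, 9.7% and 12.4%, in the same order of constructs. In RelA-dCterm these were Slc7a1 and Odc1, and in RelA-TA2_S467A they were Slc7a2, Slc7a1 and Nos2. Nos2 had 0 reads in RelA-DB and RelA-dCterm at 0 and 8 h, so it could not pass there. Each of these calls sets 1 library against 1, with the spread taken from the replicated constructs, and none could be rerun with a replicate left out. Over the 7 constructs 22 of 42 pairs of gene and construct passed. With the replicate block 30 passed, with no filter on low counts 27, and by DESeq2 15 of the 34 with an adjusted p. At 8 h between RelA-dTAD and EV, the comparison that chose the genes, the log2 differences were 2.29 for Slc7a2, 1.51 for Arg2, 0.10 for Slc7a1, 0.10 for Ass1 and -0.34 for Odc1, with 1 read of Nos2 in each. These are values without a test.

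Other genes of arginine, nitric oxide cofactor and polyamine metabolism gave the setting for the members. Of 54 such genes in the tables, 43 were tested. At 8 h in RelA-WT 12 were higher and 8 lower, which is 27.9% and 18.6% of them, against 15.8% and 11.6% of all genes. In EV 16 were higher and 14 lower (37.2% and 32.6%, against 25.6% and 23.1% of all genes), and in RelA-dTAD 16 and 13 (37.2% and 30.2%, against 24.4% and 22.5%). In RelA-dTA1 15 were higher and 9 lower (34.9% and 20.9%, against 19.4% and 15.3%). The median log2 change of the list at 8 h was -0.05 (RelA-WT), -0.11 (EV) and 0.11 (RelA-dTAD), close to the medians of all genes, which were -0.03, -0.02 and -0.02. At 3 h 5 were higher and 3 lower in RelA-WT (11.6% and 6.98%, against 10.5% and 5.74% of all genes), and 5 and 0 in RelA-dTA1 (11.6% and 0.0%, against 9.58% and 4.87%). In EV 4 were higher and 1 lower at 3 h (9.3% and 2.33%, against 3.02% and 0.922%), and in RelA-dTAD 4 and 0 (9.3% and 0.0%, against 2.28% and 0.629%).

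The gene with the largest rise in that list was Gch1, which makes the first intermediate of tetrahydrobiopterin, the cofactor of nitric oxide synthases. In RelA-WT Gch1 went from a mean of 3.99 ± 1.32 CPM (SD, n = 2) at 0 h to 44.2 ± 2.28 at 3 h and 52.5 ± 11.6 at 8 h. In RelA-dTAD it went from 2.33 ± 0.70 CPM to 5.71 ± 0.495 at 3 h and 27.4 ± 1.63 at 8 h, and in EV from 1.89 ± 0.721 CPM to 3.96 ± 0.00201 and 14.9 ± 0.935 (SD, n = 2). The log2 change at 8 h was 3.77 ± 0.30 in RelA-WT, 2.94 ± 0.33 in EV and 3.47 ± 0.31 in RelA-dTAD, and all 3 passed in edgeR's test. Unlike Nos2, Gch1 rose by 8 h without RelA as well.

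In the polyamine branch, Srm (spermidine synthase) and Sat1 (the acetylase that starts polyamine breakdown) rose in all 3 constructs at 8 h. Srm had log2 changes of 0.86 ± 0.25 in RelA-WT, 1.85 ± 0.25 in EV and 1.73 ± 0.25 in RelA-dTAD. Sat1 had 0.91 ± 0.14, 1.87 ± 0.14 and 1.86 ± 0.14. Atp13a3, a polyamine transporter, was among the 5 largest rises in EV (2.01 ± 0.17) and RelA-dTAD (1.92 ± 0.18). Amd1, whose product supplies the aminopropyl group of polyamines, rose by 1.22 ± 0.20 in RelA-dTAD. Among carriers, Slc7a6 rose by 0.93 ± 0.08 in RelA-WT. Slc7a7, a carrier that exports cationic amino acids, rose by 1.07 ± 0.34 in RelA-WT and fell by 1.25 in EV, at levels of 0.93 to 3.83 CPM.

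Several genes of the list fell at 8 h. Gamt, which makes creatine, had log2 changes of -1.30 ± 0.20 in RelA-WT, -1.43 ± 0.21 in EV and -1.35 ± 0.20 in RelA-dTAD. Sat2 and Aldh4a1, the latter an enzyme of proline breakdown, were among the 5 largest falls in each of the 3 constructs, with Sat2 at -1.30, -1.09 and -1.50 and Aldh4a1 at -0.80, -0.94 and -1.16. Paox, a polyamine oxidase, fell by 1.21 in EV and by 1.78 in RelA-dTAD. Atp13a2, a lysosomal polyamine exporter, fell by 0.77 in RelA-WT and by 0.94 in RelA-dTAD, and Pts, the next enzyme of tetrahydrobiopterin synthesis after Gch1, by 0.72 in RelA-WT. Comparisons of the response between constructs are not given here for the genes of this list. A gene named for only some constructs was among the 5 largest changes there, and its values in the others are not given.

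Across the 20 group means of the replicated constructs, Slc7a2 varied with Nos2 (Pearson r = 0.892 of log2 CPM), Arg2 (0.881) and Ass1 (0.746). It varied little with Slc7a1 (0.287) or Odc1 (-0.168). The log2 values of Nos2 and Arg2 rest on few reads in many of these groups. Slc7a1 and Odc1 varied together (0.799), and Slc7a1 also had r of 0.597 with Ass1 and 0.541 with Arg2. The groups share time points, sets and the 4 cell populations, so these values are descriptions with no p. Over the same 20 groups the genes most like Slc7a2 were Gsdmd (0.964), Enpp4 (0.963), Slc2a6 (0.958), Phip (0.952) and Gbp2 (0.950). These 5 were picked for their likeness over groups that include the 8 h values of EV and RelA-dTAD, so their levels there are a description. At 8 h the means in EV, RelA-dTAD and RelA-WT were 73.9, 388 and 1793 CPM for Gbp2 and 2.60, 10.8 and 74.2 CPM for Slc2a6. For Slc7a1 the most alike genes were Raph1 (0.977), Mef2a (0.976) and Nars (0.975), and for Odc1 Itga6 (0.962), Aif1l (0.960) and Mical2 (0.960). For Nos2 they were Zbtb7c (0.979), Fam49a (0.974) and Scube3 (0.969). For Arg2 they were Helz2 (0.958), Tbrg1 (0.957) and Rab8b (0.952), and for Ass1 H2afy (0.971), Gnb4 (0.957) and Hps3 (0.951).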

How the data were processed

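The authors deposited 2 tables of whole-number read counts, 1 for each set. Per the submitters' processing notes, the authors used cutadapt 1.9.1, STAR with mm10 and featureCounts 1.5.0 to make these counts, and DESeq2 is named there too; the roles and settings, including strand, are not given in the sources used here. Per the labels' protocols, stranded libraries were read as single ends. Of 45706 entries, 45143 (98.77%) matched a symbol and 16412 had no read. The 6 genes, the pathway and marker lists and the motifs were chosen with earlier results of these data known. From the counts, CPM were computed with edgeR 4.0.16 in R 4.3.3 (TMM scaling, prior count 2 for log2 values).

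For the replicated constructs, edgeR's robust quasi-likelihood test was run on 40 libraries, with a separate mean for every group of construct and time (13665 genes after filterByExpr, 20 residual degrees of freedom). A second fit of all 75 libraries (15090 genes) gave the 8 h change of the 7 lone constructs. Comparisons of the TNF response between constructs were added after the data were seen. Exact intervals (95%) and floors (3 reads) were used for low counts and cover counting error only, since PCR copies are not independent molecules. Pathway genes were named by size of change at 8 h in RelA-WT, EV or RelA-dTAD, at most 5 for each construct and direction; 1 gene that the rule names is not reported here. Genes of like pattern were the 5 highest correlations for Slc7a2 and the 3 highest for each other member. The fitting steps were tested on simulated data.

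In the replicated constructs, replicate numbers follow the deposited sets, per the labels. Libraries with the same number deviated together: over 190 pairs of groups the correlation of their deviations was 0.360 to 0.670, with a median of 0.530. The numbers were taken to pair the samples, but the main fits hold no replicate block and so leave this pairing out. A fit with the set as a block is given beside a result where it changes the call. Other alternatives were DESeq2 1.42.0, RLE size factors, 2 other filters and leaving out each replicate of each replicated construct.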

Additional observations from a re-analysis of the deposited data

Results flagged for a closer look

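Tests of the difference between constructs, added after the data were seen, marked 6 results, in which the TNF response of a gene was not the same as in RelA-WT. Slc7a2 responded less at 3 h in EV (difference of log2 changes -2.04 ± 0.30) and in RelA-dTAD (-1.64 ± 0.29), in edgeR's quasi-likelihood test with adjusted p of 8.38e-05 and 0.00116. Slc7a1 responded more at 8 h in EV (0.78 ± 0.22) and in RelA-dTAD (0.71 ± 0.22), with adjusted p of 0.0172 and 0.0392. Both Slc7a1 calls were lost in some fits with a replicate left out, as given above. Odc1 responded more at 8 h in EV (1.08 ± 0.19) and in RelA-dTAD (0.79 ± 0.19), with adjusted p of 0.000229 and 0.00653. The Odc1 call of RelA-dTAD was lost without the second RelA-WT replicate. EV and RelA-dTAD are compared with the same RelA-WT libraries.

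A further result was marked because both libraries of one construct moved one way and both of the other the opposite way. From 0 to 8 h Slc7a2 went down in both EV libraries (0.62 and 0.673 times) and up in both RelA-WT libraries (4.20 and 3.47 times), a difference of -2.53 on the log2 scale. This difference was not tested, since the 8 h libraries of EV took part in the choice of the genes.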

How the results depend on the processing

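For 282 results on single members, 3248 alternative values could be had. Of these, 3163 kept their direction and their side of the threshold or changed sign without a call in either setting (133), 39 lost a call, 46 gained one and 0 reversed a call. The replicate block gained 22 calls and lost 0, the fit without a filter on low counts gained 17 and lost 0, and DESeq2 lost 7 and gained 1. The count of member calls in EV was 2 and became 4 with the replicate block. In RelA-WT it was 7 and became 10 with the block and 9 with no filter. Between EV and RelA-WT it was 7 and became 9 with the block and 10 with no filter. Between RelA-dTAD and RelA-WT it was 5 and became 8 with the replicate block and 8 with no filter. Between RelA-dTAD and EV before 8 h it was 0 and became 1 with the block and 1 with no filter, and 0 to 1 when replicates were left out in turn. In RelA-dTA1 it was 8, and 4 to 8 when replicates were left out. Over 40 comparisons, the count of all genes called was 1.29 to 4.28 times as large with the block (median 2.01) and 0.912 to 2.66 times with no filter. Without 1 replicate it fell to as little as 0.108 times. For the 7 lone constructs no replicate could be left out. Under the filter at a mean of 1 CPM Arg2 has no value, and Nos2 none in the lone constructs, and 27 DESeq2 values had no adjusted p. The cause of these differences was not tested. Nos2 and Arg2 rest on at most 122 and 36 reads in a library, and differences of a few reads are not detectable there.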
